A study of Mus musculus with 41 samples.

Results

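The old mice of the series were compared by how much Cdkn2a mRNA their bones held. The mice were chosen by the readout itself: within the 13 vehicle-treated and within the 16 AP-treated old mice, a mouse above its group's median Cdkn2a CPM (counts per 1000000 of the mouse's total count) was placed in the high class and one below it in the low class. The vehicle-treated mouse at the median, mouse 14, was left out, so that 28 of the 41 mice of the series entered, 14 high (6 vehicle, 8 AP) and 14 low (6 vehicle, 8 AP). All mice carried the INK-ATTAC transgene on a C57BL/6 background, and RNA was sequenced from centrifuged diaphyses of the tibia. In INK-ATTAC a fragment of the p16Ink4a promoter drives an inducible suicide protein, so that the dimerizer AP20187 (AP) removes cells in which that promoter is active. Old mice received vehicle or AP20187 at 10 mg/kg, 2 doses a week, from 20 months of age for 4 months, and all mice were female by the study's methods. The 12 young mice, 6 to 12 months old by the labels and 6 months by the methods, carried the transgene too and are labelled as vehicle-treated. The classes were not assigned by treatment: both hold vehicle- and AP-treated animals, and every comparison between them had treatment as a covariate or was made within one treatment, except where its removal was the alternative. Nothing ties a mouse's class to a cause, since Cdkn2a was measured and not set. In high mice 10 of 20 osteoblast and 5 of 19 osteoclast markers were called higher, against 2.27% of all genes tested, by a threshold given with the counts over all genes. Of 18 cartilage markers 3 were called lower, against 0.157% of all genes, and these 3 calls were lost without 2 mice. With a trend in transcript GC content removed, 0 osteoblast and 0 osteoclast markers were called, at medians of 0.70 and 0.56 on the log2 scale against 0.75 and 0.60 before. When the trend was also removed from Cdkn2a before the split, 16 and 9 were called. With the GC slope of each mouse as a covariate 0 genes of any kind were called, and the medians were 0.38 and 0.44. That slope went closely with the classes, so that this fit could separate class from slope only poorly.

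Cdkn2a encodes a pair of unrelated proteins from a shared locus. p16Ink4a blocks the cyclin D kinases CDK4 and CDK6 and so keeps the retinoblastoma protein active, and p19Arf blocks Mdm2 and so stabilizes p53. Expression is held down by Polycomb complexes in young tissue, rises with age in many tissues, and is widely read as a mark of cellular senescence, a lasting arrest in which cells secrete cytokines, chemokines, growth factors and matrix proteases (the senescence-associated secretory phenotype, SASP). In bone, osteoblasts lay down type I collagen matrix, osteocytes are osteoblasts embedded in it, and osteoclasts, which arise from the macrophage lineage under the cytokine RANKL, resorb it. p16Ink4a in aged bone has been described in several of these lineages and in marrow cells.

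The labelled tissue fits its markers. The 20 osteoblast markers together held 8273 to 92006 CPM in the 28 mice, and none of the markers fixed for osteoblasts, osteocytes or osteoclasts was at 0 in all of them. Skeletal muscle markers were abundant too, at 13338 to 198470 CPM, so that muscle RNA was present in varying amounts. Marrow cell markers (neutrophil, erythroid, B cell) were present in every mouse after centrifugation. Throughout, fewer cells of a type and less RNA per cell cannot be told apart in such bulk RNA.

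Cdkn2a (ENSMUSG00000044303, chromosome 4, 89274471 to 89294653, minus strand, GRCm38) was counted over a gene model of 1172 bases. That length equals the union of the exons of transcripts Cdkn2a-201, which codes for p16Ink4a, and Cdkn2a-202, which codes for p19Arf: 575 bases are in both, 277 only in the p16Ink4a transcript and 320 only in the p19Arf transcript. The count therefore does not separate them. Each transcript has a promoter of its own. The 250 bases before each start (RefSeq, GRCm38.p6, minus strand, written 5′ to 3′) are shown because the split rests on their shared output, with CG dinucleotides in capitals. The neighbouring gene Cdkn2b, which codes for the related inhibitor p15Ink4b, is given beside them because it was itself called. In the GENCODE annotation exon 1 of Cdkn2a-202 starts further upstream than the RefSeq start, so that 34 bases of the p19Arf stretch lie inside that exon.
p19Arf promoter of Cdkn2a, chr4:89294620-89294869: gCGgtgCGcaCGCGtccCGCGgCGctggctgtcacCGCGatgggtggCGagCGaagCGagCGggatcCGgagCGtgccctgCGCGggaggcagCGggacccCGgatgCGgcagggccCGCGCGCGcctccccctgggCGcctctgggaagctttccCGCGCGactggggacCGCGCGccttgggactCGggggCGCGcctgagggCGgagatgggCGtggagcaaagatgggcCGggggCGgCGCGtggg
p16Ink4a promoter of Cdkn2a, chr4:89282193-89282442: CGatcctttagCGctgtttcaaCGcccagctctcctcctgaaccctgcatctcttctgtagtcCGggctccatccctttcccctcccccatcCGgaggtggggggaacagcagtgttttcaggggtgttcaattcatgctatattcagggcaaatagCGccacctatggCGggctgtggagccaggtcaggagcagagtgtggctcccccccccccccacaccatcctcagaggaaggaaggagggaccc
Cdkn2b promoter, chr4:89311033-89311282: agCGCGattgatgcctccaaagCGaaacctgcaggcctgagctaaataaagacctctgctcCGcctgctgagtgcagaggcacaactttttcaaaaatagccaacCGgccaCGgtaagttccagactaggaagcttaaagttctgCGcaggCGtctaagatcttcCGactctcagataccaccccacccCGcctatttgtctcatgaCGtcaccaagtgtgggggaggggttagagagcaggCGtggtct
The p19Arf promoter holds 40 CG dinucleotides in 250 bases and is 78.4% G and C, the p16Ink4a promoter 7 and 60% and the Cdkn2b promoter 12 and 53.6%. Among the 32851 RefSeq mouse promoters of the same length, 1.306%, 46.3% and 33.49% hold at least as many CG dinucleotides (40, 7 and 12, the median being 6). The Cdkn2a transcript is rich in G and C as well, at 60.2%, which matters for the library composition described next.

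In the high class Cdkn2a ranged from 1.24 to 7.56 CPM (median 3.41), and in the low class from 0.325 to 1.4 CPM (median 0.879). These values rest on 63 to 355 reads per high mouse and 19 to 70 reads per low mouse. They are the values that chose the mice and carry no test. By class the means were 3.48 ± 1.9 CPM (SD, n = 14) and 0.889 ± 0.345 CPM (SD, n = 14), and in young mice 0.605 ± 0.315 CPM (SD, n = 12). Within vehicle, high and low mice had 4.37 ± 1.32 CPM (SD, n = 6) and 1.03 ± 0.421 CPM (SD, n = 6). Within AP they had 2.82 ± 2.06 CPM (SD, n = 8) and 0.786 ± 0.257 CPM (SD, n = 8). All 14 high mice and 3 of 14 low mice lay above the highest young mouse. The ranges of high AP mice and low vehicle mice overlap, because each treatment had a median of its own (2.32 CPM for vehicle, 1.19 CPM for AP).

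The vehicle split fell in a wide gap that held only the omitted mouse 14, and the AP split did not. Among vehicle-treated mice the lowest high mouse, mouse 6, had 3.12 CPM and the highest low mouse, mouse 1, had 1.4 CPM. Among AP-treated mice the values on either side of the median were 1.13 CPM (mouse 12, low) and 1.24 CPM (mouse 9, high), followed by 1.28 CPM (mouse 5, high). Their exact Poisson 95% intervals, which cover counting error only, were 0.828 to 1.52, 0.963 to 1.58 and 0.983 to 1.64 CPM, so that counting error alone does not separate the mice nearest the AP split. The highest value of all, 7.56 CPM, was that of AP-treated mouse 24.

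**Figure D1:**
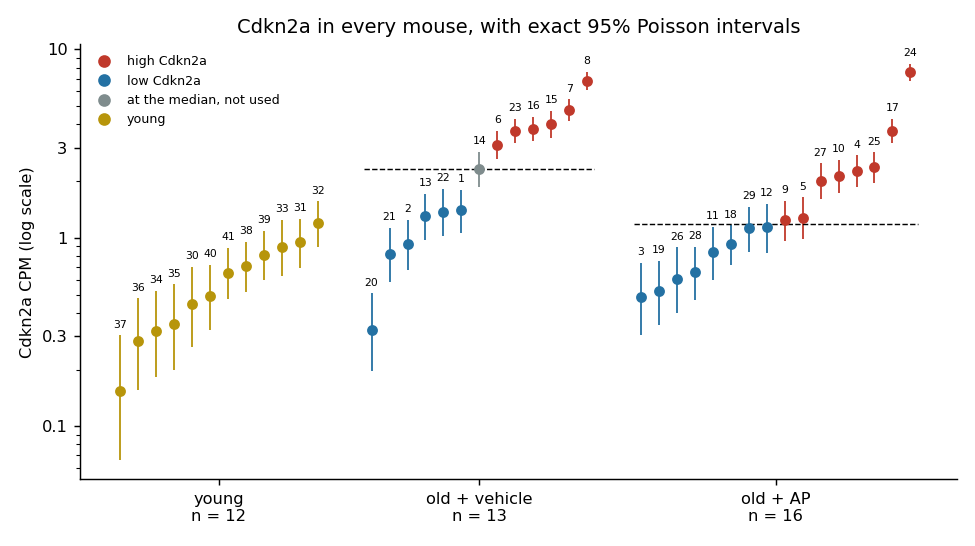
Cdkn2a CPM (log axis) in each mouse by group and class, with exact Poisson 95% intervals (counting error) and dashed lines at the median of each old group. High vehicle mice start at 3.12 CPM, well above the highest low vehicle mouse at 1.4 CPM, whereas the AP mice form a continuous series through their median of 1.19 CPM.

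Total counts did not differ beyond the spread between mice. They were 38880080 to 53935498 in high and 37028959 to 75942717 in low mice (two-sided permutation test within treatment, p = 0.613), and genes with a count did not differ beyond the spread (p = 0.304). Composition differed. The 10 most counted genes took 10.9% ± 1.91 (SD, n = 14) of counts in high and 9.44% ± 2.09 (SD, n = 14) in low mice (permutation p = 0.0331, adjusted over the 4 measures 0.0662). The measure that went with the classes most closely was a GC slope, the change in a mouse's log2 CPM relative to the mean of all 41 mice per 10 percentage points of transcript GC content. It was 0.11 ± 0.0957 (SD, n = 14) in high and -0.072 ± 0.116 (SD, n = 14) in low mice (permutation p = 1e-05, the smallest that 100000 resamples can give, adjusted 4e-05), so that GC-rich transcripts took more of the reads where Cdkn2a was high. Against log2 Cdkn2a CPM the slope had r = 0.92 and rho = 0.90 over 13 vehicle-treated mice (permutation p = 1e-05 and 9e-05), r = 0.68 and rho = 0.78 over 16 AP-treated mice (p = 0.00358 and 0.00071), and r = 0.77 and rho = 0.82 over 12 young mice (p = 0.00383 and 0.00191). Adjusted over the 3 groups, these were 3e-05, 0.00383 and 0.00383 for r and 0.00027, 0.001065 and 0.00191 for rho. Without the 2 mice farthest from the median, r was 0.84, 0.55 and 0.71. Whether the slope arises in the tissue or in the libraries cannot be told apart here, and such a trend moves the CPM of Cdkn2a, itself GC-rich, as well. At the GC content of Cdkn2a the fitted trend was -0.072 to 0.358 log2 units in high and -0.443 to 0.133 in low mice. The class means of Cdkn2a CPM differed 3.92-fold. Each result below is therefore given as deposited and, where it matters, with a GC trend fitted per mouse and removed, an alternative chosen after seeing the data.

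Transcript GC content ran through the whole comparison. Median GC content was 57.9% for the genes called higher in high mice and 49.8% for all genes tested. Across the 15396 genes that averaged at least 1 CPM, which are not independent, fold change and GC content had a Spearman correlation of 0.47. In the eighth of them with the lowest GC content the median log2 fold change was -0.13, and 0.208% were called higher. In the eighth with the highest it was 0.24, and 10.7% were called higher.

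**Figure D2:**
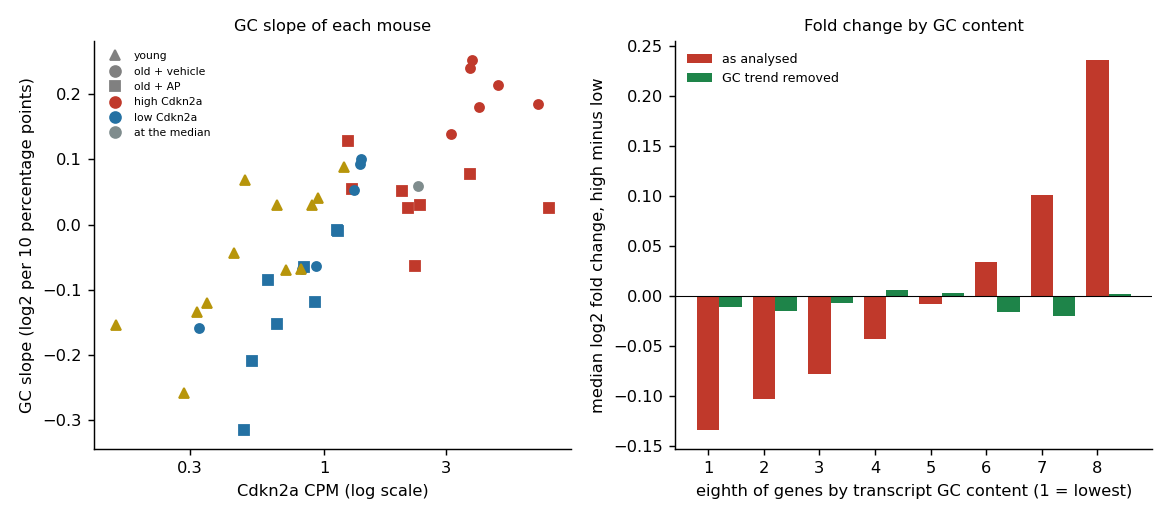
GC slope of each mouse (log2 units per 10 percentage points of GC) against its Cdkn2a CPM (log axis), and log2 fold change, high minus low, by eighth of transcript GC content with and without the GC trend. The slope rises with Cdkn2a in each group (r = 0.92, 0.68 and 0.77), and the medians climb from -0.13 to 0.24 across the eighths until the trend is removed.

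Of 19120 genes tested, 434 were called higher and 30 lower in high than in low mice by edgeR's quasi-likelihood test (with a log2 fold change beyond 0.5 in either direction and p under 0.05 after adjustment), which is 2.27% and 0.157%. These shares are the background for every list below. Of the 464, 410 were protein-coding and 388 averaged at least 1 CPM, and 5 of the 30 lower genes were immunoglobulin segments. By adjusted p alone there were 1316 and 283, and DESeq2 called 473 and 61. In 0 genes (0.0% in either direction) did the CPM ranges of the classes fail to overlap, so that no gene separated all high from all low mice, while 4695 genes had an unadjusted p under 0.05. With the GC trend removed 52 genes were called higher (0.275%) and 6 lower (0.0317%), 44 of the 52 among the 434. When the trend was removed from Cdkn2a too before the mice were split, AP-treated mouse 9 became low and mouse 12 high, and 653 genes (3.45%) were called higher and 106 (0.56%) lower, 250 of the 653 among the 434. With each mouse's GC slope as a covariate edgeR called 0 genes in either direction, against 401 (2.0%) with an unadjusted p under 0.05. The slope followed the classes closely, at 0.138 to 0.253 in high and -0.158 to 0.1 in low vehicle-treated mice. In AP-treated mice it was -0.0643 to 0.129 and -0.316 to -0.00823. That fit could therefore separate class from slope only poorly, and its 0 does not tell them apart. The number of calls also moved with single mice. It was lowest, at 287 higher, without mouse 20 (low, vehicle) or mouse 27 (high, AP), and highest, at 847, without mouse 12 (low, AP, just under the split). Without mouse 24 (high, AP) it was 652. Genes called lower numbered 21 to 47 over the same fits.

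**Figure D3:**
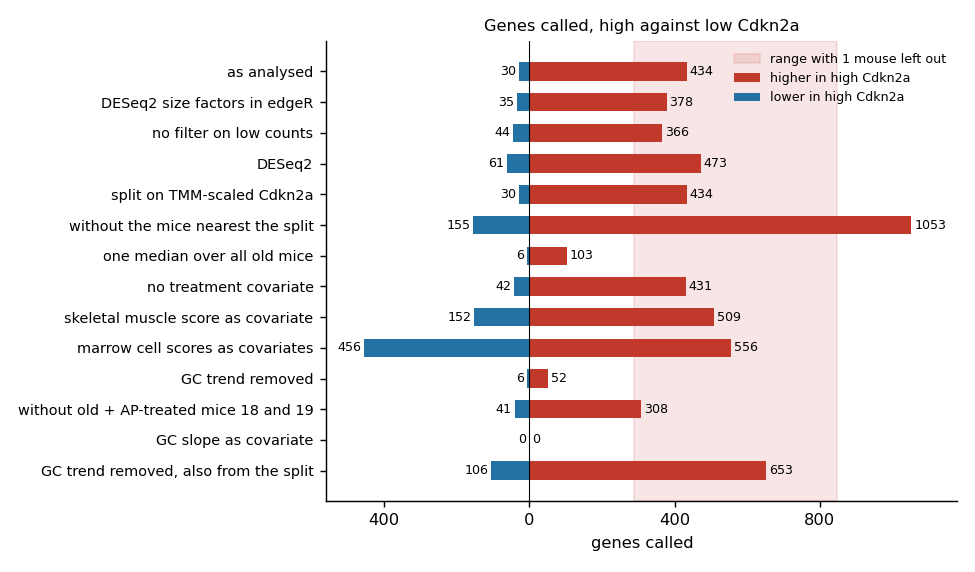
Number of genes called higher and lower in high against low mice under each setting (bars from 0; linear axis), with the range over 28 fits that leave out 1 mouse. Calls go from 434 higher and 30 lower to 52 and 6 with the GC trend removed, 0 and 0 with the GC slope as covariate, and 653 and 106 with the trend removed from the split as well.

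Bone-forming genes were among those higher where Cdkn2a was high. Of the 20 osteoblast markers tested 10 were called higher (the background being 2.27% of all genes) and 0 lower, all 20 fold changes were positive, and their median was 0.75 on the log2 scale, against -0.019 for all genes. Their summed level was 8273 to 92006 CPM (median 59263) in high mice and 14045 to 64758 CPM (median 28509) in low mice. Values below are CPM on TMM-scaled library sizes. Col1a1 (chromosome 11, 94936224 to 94953042), a chain of type I collagen and the main protein product of osteoblasts, ranged from 2456 to 36667 CPM (median 22856) in the high mice and from 4122 to 20608 CPM (median 9318) in the low mice. Col1a1 lay above the low median in 13 of 14 high mice, and its log2 fold change was 1.08 (standard error 0.29, edgeR adjusted p = 0.0213). Mouse 24, which had the most Cdkn2a of all, had the least Col1a1 of the 28. Alpl, the phosphatase that frees phosphate for mineral, ranged from 120 to 775 CPM (median 490.2) in the high mice and from 128 to 442 CPM (median 255) in the low mice. The Alpl log2 fold change was 0.84 (standard error 0.22, edgeR adjusted p = 0.0165), with 12 of 14 high mice above the low median.

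Dlx5, a homeobox factor of osteoblast differentiation, ranged from 6.56 to 27.4 CPM (median 17.3) in the high mice and from 5.6 to 19 CPM (median 10.1) in the low mice, and its log2 fold change was 0.75 (standard error 0.19, edgeR adjusted p = 0.0156). Col5a1, a fibril collagen, ranged from 118 to 655 CPM (median 421) in the high mice and from 116 to 398 CPM (median 201) in the low mice, and for it the log2 fold change was 0.91 (standard error 0.21, edgeR adjusted p = 0.00909). For Smpd3, the sphingomyelinase needed for mineralization, the log2 fold change was 0.93 (standard error 0.24, edgeR adjusted p = 0.0193). In Dlx5, Col5a1 and Smpd3 alike 13 of 14 high mice lay above the low median, and in each mouse 24 was the lowest of the high mice and mouse 12, just under the AP split, the highest of the low mice. Cthrc1, a secreted collagen triple-helix protein made by bone-forming and remodelling cells, had a log2 fold change of 1.04 (adjusted p = 0.0325). Also called were Sp7, the transcription factor osterix, at 0.78 (adjusted p = 0.0249), Col1a2, the other chain of type I collagen, at 0.92 (adjusted p = 0.0426), Ifitm5, a mineralization protein, at 0.88 (adjusted p = 0.0272) and Pth1r, the parathyroid hormone receptor, at 0.80 (adjusted p = 0.0202). Other markers did not pass: Bglap, which codes for osteocalcin, had 0.60 (adjusted p = 0.224), Ibsp (bone sialoprotein) 0.68 (adjusted p = 0.051), Sparc (osteonectin) 0.68 (adjusted p = 0.0836) and Runx2, the master transcription factor of the lineage, 0.36 (adjusted p = 0.146).

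The osteoblast calls and the size of their fold changes moved with the processing. With the GC trend removed 0 of the 20 were called, with their median at 0.70. Col1a1 had 0.90 (adjusted p = 0.0914) and Alpl 0.72 (adjusted p = 0.077). With the GC slope as a covariate 0 were called and the median was 0.38. With the trend removed from the split too, 16 were called. Leaving out 1 mouse gave 6 calls (without mouse 27) to 16 (without mouse 12), and DESeq2 gave 14. Without mice 18 and 19 6 were called. Within vehicle the median was 0.86 and within AP 0.65.

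Of 13 osteocyte markers tested, 1 was called higher, 12 fold changes were positive, and the median was 0.27. The median was 0.093 without mice 18 and 19, 0.072 with the GC slope as a covariate and 0.19 to 0.45 with 1 mouse left out. The called one was Tnfsf11, the gene of RANKL, which osteocytes and osteoblast-lineage cells present to osteoclast precursors. Tnfsf11 ranged from 3.54 to 13.7 CPM (median 5.79) in the high mice and from 2.79 to 5.81 CPM (median 4.4) in the low mice. Its log2 fold change was 0.57 (standard error 0.15, edgeR adjusted p = 0.0174), and it was one of 11 genes among the 62 named calls that also passed with the GC trend removed, at 0.65 (adjusted p = 0.0374). Of the fits that left out 1 mouse it was called in 27 of 28, and not without mouse 7, its highest. Sost, the gene of the Wnt antagonist sclerostin and the classical osteocyte product, had a log2 fold change of 0.20 (adjusted p = 0.726), Dmp1, a matrix protein of young osteocytes, 0.27 (adjusted p = 0.523) and Mepe 0.034 (adjusted p = 0.957), none of which passed.

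**Figure D4:**
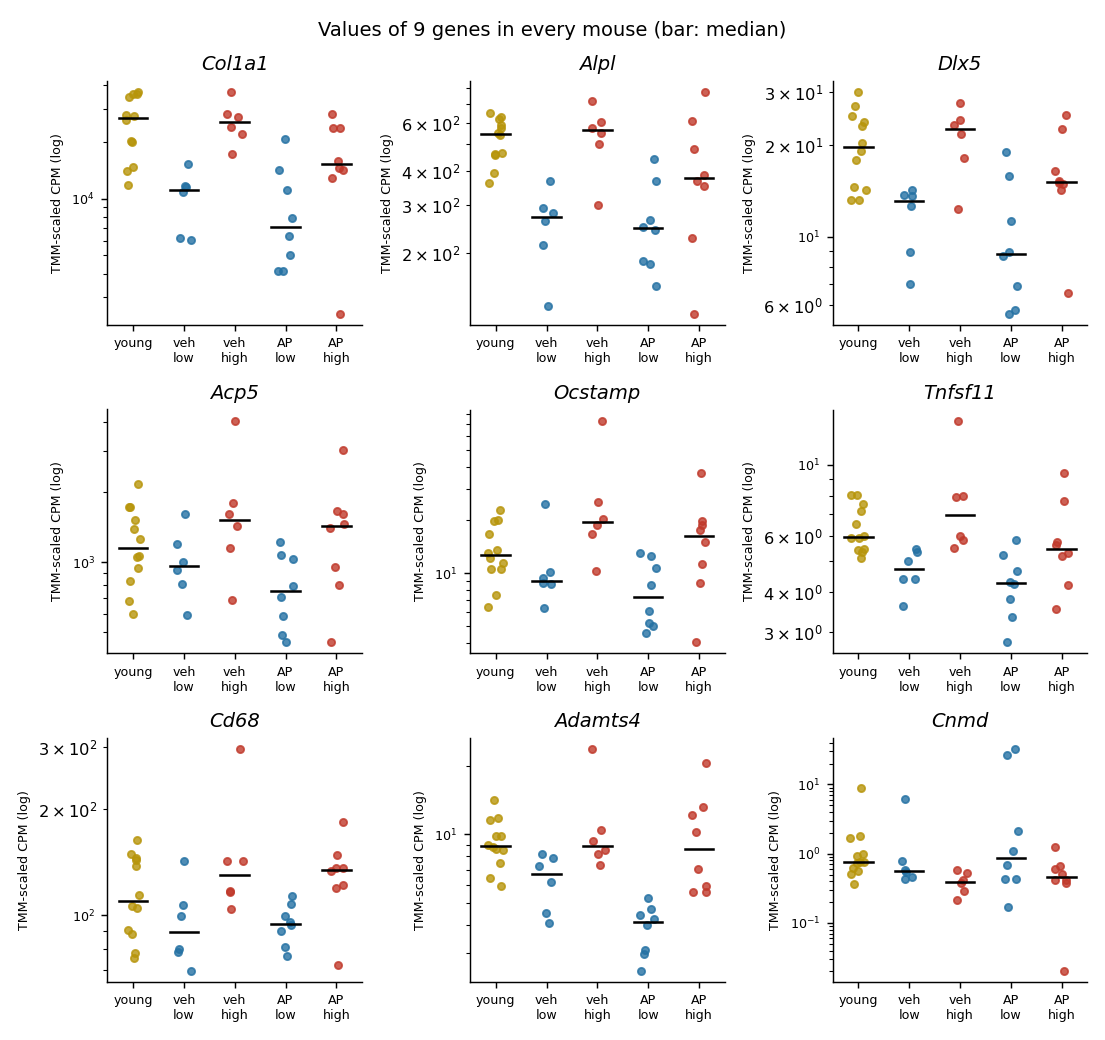
TMM-scaled CPM (log axes) of 9 genes in each old mouse by class and treatment and in the young mice, with group medians as bars. The 3 osteoblast genes Col1a1, Alpl and Dlx5 have higher medians in the high than in the low class, with mouse 24 as the low exception, and Cnmd is high in a few low-class mice, up to 32.4 CPM.

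Genes of bone-resorbing cells were called as well. Of 19 osteoclast markers 5 were called higher and 0 lower, 16 fold changes were positive, and the median was 0.60. Ocstamp, which osteoclast precursors need to fuse, ranged from 4.06 to 73.3 CPM (median 18.1) in the high mice and from 4.56 to 24.5 CPM (median 8.78) in the low mice. Ocstamp lay above the low median in 12 of 14 high mice, and its log2 fold change was 1.13 (standard error 0.29, edgeR adjusted p = 0.0186). Acp5, the tartrate-resistant acid phosphatase used to stain osteoclasts, ranged from 452 to 4068 CPM (median 1443) in the high mice and from 453 to 1615 CPM (median 866) in the low mice, and its log2 fold change was 0.83 (standard error 0.25, edgeR adjusted p = 0.0369). Tnfrsf11a, the receptor RANK that answers RANKL, had a log2 fold change of 0.62 (adjusted p = 0.0279), Siglec15, a lectin of the osteoclast surface, 0.88 (adjusted p = 0.0393), and Mmp14, a membrane collagenase counted here and among the proteases, 0.63 (adjusted p = 0.0416). Car2, the carbonic anhydrase of acid secretion, did not pass at -0.29 (adjusted p = 0.581). As among osteoblast genes, mouse 24 was the lowest high mouse for Ocstamp and Acp5, and mouse 7 the highest. These calls leaned on few mice. Without mouse 7 (high, vehicle) or mouse 27 (high, AP) 1 of the 19 was called, and without AP-treated low mice 18 and 19 also 1 (median 0.53), whereas 9 were called without mouse 16 or mouse 24. With the GC trend removed 0 were called at a median of 0.56, with the GC slope as a covariate 0 at 0.44, and with the trend removed from the split too 9. Siglec15 moved most among the called ones, to 0.34 (adjusted p = 0.557) with the GC trend removed.

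Among macrophage markers 5 of 20 were called higher and 0 lower, at a median of 0.23, with 15 fold changes positive and 5 negative. Cd68, a lysosomal glycoprotein of macrophages and osteoclasts, ranged from 72.1 to 295 CPM (median 135) in the high mice and from 69.7 to 143 CPM (median 94.7) in the low mice, and its log2 fold change was 0.55 (standard error 0.14, edgeR adjusted p = 0.0158). Cd14, the co-receptor for bacterial lipopolysaccharide, ranged from 6.5 to 25.9 CPM (median 10.2) in the high mice and from 5.26 to 10.7 CPM (median 7.83) in the low mice, at a log2 fold change of 0.66 (adjusted p = 0.0265). C1qa, a chain of the complement component C1q made by tissue macrophages, had 0.69 (adjusted p = 0.0348), and C1qc, another chain of it, 0.78 (adjusted p = 0.0359). The scavenger receptor Marco had a much larger fold change, 2.98 (adjusted p = 0.0326), but its medians were close, at 0.419 and 0.31 CPM. Its mean rested on a few high mice: mouse 7 had 34.9 CPM, mouse 24 20.6 CPM, and 8 of 14 high mice lay above the low median. Without mouse 7 the adjusted p of Marco was 0.22, and only 1 macrophage marker was called, as without mouse 20, whereas 7 were called without mouse 9. Removing the GC trend left 0 of the 20 called, at a median of 0.31, and C1qa had 0.46 (adjusted p = 0.281). The 20 markers summed to 2064 to 4623 CPM in high and 1997 to 5512 CPM in low mice, and these ranges overlapped.

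Matrix-degrading enzymes, a class of SASP factors and at the same time products of bone cells, were called in 6 of 27 cases, all higher, at a median of 0.36. With 1 mouse left out 3 (when any 1 of 10 mice was left out) to 11 (without mouse 12) were called, and with the GC trend removed 1. Adamts4, an aggrecanase, ranged from 5.56 to 23.7 CPM (median 8.93) in the high mice and from 2.51 to 8.19 CPM (median 4.46) in the low mice. All 14 high mice lay above the low median of Adamts4, its log2 fold change was 1.13 (standard error 0.21, edgeR adjusted p = 0.00302), and with the GC trend removed it still passed at 1.04 (adjusted p = 0.0191). Mmp13, the collagenase of bone and cartilage, ranged from 338 to 1512 CPM (median 599.6) in the high mice and from 219 to 851 CPM (median 434) in the low mice, and its log2 fold change was 0.72 (standard error 0.22, edgeR adjusted p = 0.0392). Mmp17 and Mmp23, a membrane-anchored and a secreted or membrane-released metalloprotease, had log2 fold changes of 0.65 (adjusted p = 0.0111) and 0.79 (adjusted p = 0.0116). Timp1, a secreted inhibitor of matrix metalloproteases, had 1.07 (adjusted p = 0.0459), which was carried by mouse 16 (284 CPM) and mouse 10 (145 CPM) and was called in 14 of 28 fits with 1 mouse left out. The neutrophil collagenase Mmp8 went the other way, at -0.49 (adjusted p = 0.104), and did not pass.

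The SenMayo list of senescence and SASP genes, drawn up by the study and applied by it to these samples, is not independent evidence of its direction. Of its 104 genes tested, 5 were called higher and 0 lower, or 4.81% against 2.27% of all genes, 74 fold changes were positive, and the median was 0.14 against -0.019 for all genes. The 5 were Sema3f, Pgf, Angptl4, Mmp13 and Mmp14. Sema3f, a secreted guidance protein of axons and vessels, ranged from 12.9 to 35.3 CPM (median 19.5) in the high mice and from 7.86 to 19.1 CPM (median 13.2) in the low mice, and its log2 fold change was 0.60 (standard error 0.11, edgeR adjusted p = 0.00264). Pgf, placental growth factor, ranged from 5.27 to 21.6 CPM (median 12.4) in the high mice and from 4.77 to 15 CPM (median 7.62) in the low mice, and its log2 fold change was 0.74 (standard error 0.19, edgeR adjusted p = 0.0164). For Angptl4, an inhibitor of lipoprotein lipase, the log2 fold change was 0.79 (standard error 0.24, edgeR adjusted p = 0.0369), and it was called in 16 of 28 fits that left out 1 mouse, Mmp13 in 15 of 28 and Mmp14 in 11 of 28. With the GC trend removed 0 of the 103 with a GC value were called (median 0.12), with the GC slope as a covariate 0 (median 0.044), with the trend removed from the split too 9, by DESeq2 11, and over the fits that left out 1 mouse 2 (without mouse 2, 7, 10, 20 or 22) to 14 (without mouse 12).

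The neighbour and the partners of Cdkn2a gave a mixed picture. Cdkn2b (chromosome 4, 89306289 to 89311032, minus strand), a CDK4 and CDK6 inhibitor in the same locus, ranged from 0.943 to 1.97 CPM (median 1.47) in the high mice and from 0.59 to 1.57 CPM (median 1.06) in the low mice. Cdkn2b lay above the low median in 13 of 14 high mice, and its log2 fold change was 0.50 (standard error 0.13, edgeR adjusted p = 0.0156), just past the fold threshold. It was called in 18 of 28 fits with 1 mouse left out, and with the GC trend removed it had 0.38 (adjusted p = 0.113). Bbc3, the p53-induced cell death gene also called Puma, ranged from 2.77 to 6.94 CPM (median 5.0) in the high mice and from 1.78 to 5.44 CPM (median 3.22) in the low mice, and its log2 fold change was 0.60 (standard error 0.14, edgeR adjusted p = 0.00777), against 0.19 (adjusted p = 0.44) with the GC trend removed. Cdkn1a, the p53-induced CDK inhibitor p21 and the other main marker of senescence, did not pass. It ranged from 81.2 to 256 CPM (median 138) in the high mice and from 39.6 to 177 CPM (median 125) in the low mice, at a log2 fold change of 0.33 (adjusted p = 0.246). The other 19 of the 22 CDK inhibitors and p53 targets were not called either, and the median of the list was -0.0051. Mif, macrophage migration inhibitory factor and a member of the SenMayo list, had 0.49 (adjusted p = 0.00958), under the fold threshold, and 0.12 (adjusted p = 0.602) without the GC trend.

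Of 35 cell cycle genes, 1 was called higher and 0 lower. Only 4 fold changes were positive, and the median was -0.17 (-0.0053 without mice 18 and 19). The median was 0.052 with the GC slope as a covariate and 0.083 with scores of the marrow lineages as covariates. With a muscle score 3 members were called lower. The gene called higher was Ccnd1, cyclin D1, the partner of the kinases that p16Ink4a blocks. Ccnd1 ranged from 59.9 to 156 CPM (median 85.1) in the high mice and from 39.3 to 86 CPM (median 56.8) in the low mice. All 14 high mice lay above the low median, its log2 fold change was 0.68 (standard error 0.14, edgeR adjusted p = 0.00535), and it passed with the GC trend removed, at 0.69 (adjusted p = 0.0212), and in 28 of 28 fits that left out 1 mouse. Of 20 Polycomb subunits and other repressors of the locus, 1 was called higher and 0 lower. This was Tbx2, a T-box repressor of Cdkn2a and also a skeletal patterning gene, which ranged from 12.1 to 54 CPM (median 37.4) in the high mice and from 9.21 to 52.7 CPM (median 17.7) in the low mice, at a log2 fold change of 0.77 (adjusted p = 0.0261). Without mice 18 and 19 it did not pass, at 0.67 (adjusted p = 0.0552), nor with the GC trend removed, at 0.47 (adjusted p = 0.186). With 1 mouse left out 0 (as without mouse 3) to 2 (as without mouse 12) of the 20 were called.

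Signalling genes of bone were called higher in small numbers. Of 28 Wnt ligands and antagonists 3 were called higher, of 29 TGF-beta and BMP genes 3, and 0 lower in either list, at medians of 0.35 and 0.27. With 1 mouse left out 1 (without mouse 16, 20 or 21) to 5 (without mouse 12) of the Wnt genes and 3 to 8 (without mouse 12) of the TGF-beta and BMP genes were called, and with the GC trend removed 0 and 1. Notum, a secreted enzyme that inactivates Wnt ligands, ranged from 2.15 to 20.3 CPM (median 6.25) in the high mice and from 1.6 to 7.73 CPM (median 2.85) in the low mice, at a log2 fold change of 0.99 (adjusted p = 0.024). Wif1, a Wnt inhibitor of osteoblasts, had 0.68 (adjusted p = 0.0498) and was called in 6 of 28 fits that left out 1 mouse. Wnt7b, a bone-building Wnt ligand, had 1.83 (adjusted p = 0.0275), carried by mouse 16 at 9.5 CPM against a median of 0.348 CPM in high mice, and it did not pass without that mouse (adjusted p = 0.084). Smad6 and Id3, both induced by BMP signals, were both called. Smad6 ranged from 4.9 to 16.3 CPM (median 10.3) in the high mice and from 2.58 to 10.6 CPM (median 6.34) in the low mice, and its log2 fold change was 0.82 (standard error 0.17, edgeR adjusted p = 0.00558). For Id3 the fold change was 0.81 (adjusted p = 0.0112), and for Inhbb, the activin B subunit, 0.78 (adjusted p = 0.0193). Smad6 passed with the GC trend removed too, at 0.58 (adjusted p = 0.0446).

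Junb and Jund, subunits of the transcription factor AP-1, were the 2 of 24 immediate early genes that were called (median 0.30, 21 fold changes positive), and 5 were called without mouse 12 or mouse 29. Junb had 23.9 and 13.5 CPM as medians of the high and the low class and a log2 fold change of 0.89 (adjusted p = 0.0179), and Jund 13.9 and 10 CPM and 0.65 (adjusted p = 0.00595). Jund, at 67.1% GC, had 0.18 (adjusted p = 0.387) once the GC trend was removed, and Junb 0.58 (adjusted p = 0.153). Among 25 cytokine and NF-kB genes, Cebpd, an acute-phase transcription factor, was called at 0.58 (adjusted p = 0.0365) and Lif, a cytokine of the interleukin-6 family, at 0.63 (adjusted p = 0.0475). These calls held in 18 of 28 and 9 of 28 fits that left out 1 mouse, and both were lost when any 1 of mice 2, 3, 7, 16, 20, 22 and 26 was left out. The chemokines, which form much of the SASP, had 0 calls among 31 by edgeR, 3 by DESeq2. Cxcl16 had the smallest p among them, at a log2 fold change of 0.38 (adjusted p = 0.0161), below the fold threshold.

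Vessels and fibroblasts contributed single genes. Plvap, which codes for the diaphragm protein of fenestrated endothelium, ranged from 59.2 to 139 CPM (median 95.1) in the high mice and from 33.6 to 84.1 CPM (median 56.7) in the low mice, with all 14 high mice above the low median and a log2 fold change of 0.66 (adjusted p = 0.00333). Sox18, an endothelial transcription factor, had 0.55 (adjusted p = 0.0229) and Cldn5, a tight junction protein of endothelium, 0.56 (adjusted p = 0.0369). Removing the GC trend left 0 of the 18 endothelial markers called, and Plvap had 0.41 (adjusted p = 0.0567), Sox18 0.28 (adjusted p = 0.306) and Cldn5 0.32 (adjusted p = 0.281). Without mice 18 and 19 1 was called. The other 15 of 18 endothelial markers did not pass, Pecam1 among them at 0.091 (adjusted p = 0.6) and Cdh5 at 0.20 (adjusted p = 0.34). Of the fibroblast markers of tendon and periosteum 2 of 19 were called, Col12a1, a collagen on the surface of fibrils, at 0.70 (adjusted p = 0.0163) and Col6a1, a chain of beaded-filament collagen, at 0.78 (adjusted p = 0.0216). Of the 19 fold changes 12 were positive and 7 negative, at a median of 0.048. That median was 0.52 within vehicle, -0.15 within AP and -0.27 with the GC slope as a covariate. With the GC trend removed 1 was called, and with 1 mouse left out 2 to 4. Sdc1 (syndecan-1), listed as a plasma cell marker but also made by other cells, was called at 0.65 (adjusted p = 0.0222), while 11 of the other 12 plasma cell markers had negative fold changes. Rplp1, a ribosomal stalk protein, was the 1 of 30 ribosomal protein genes that was called, at 0.68 (adjusted p = 0.00264), and it passed with the GC trend removed.

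Some cartilage genes stood on the other side, and 2 mice decided them. Of 18 cartilage markers 3 were called lower in high mice (the background being 0.157%) and 0 higher, at a median of -1.32, with 13 fold changes negative and 5 positive. DESeq2 called 7 lower and 1 higher, edgeR 1 lower and 0 higher with the GC trend removed, and 3 lower and 2 higher with it removed from the split too. Among the positive ones, Col2a1, the type II collagen that makes up most of cartilage collagen, had 0.68 (adjusted p = 0.172), and Col11a1 and Col11a2, chains of its partner type XI, had 0.67 (adjusted p = 0.135) and 0.86 (adjusted p = 0.0614), and none passed. The 18 markers summed to 454 to 4575 CPM (median 2863) in high and 720 to 4159 CPM (median 1932) in low mice, so that the summed level had the higher median in the high class. Cnmd, which codes for chondromodulin, an inhibitor of vessel growth in cartilage, ranged from 0.0205 to 1.23 CPM (median 0.416) in the high mice and from 0.17 to 32.4 CPM (median 0.629) in the low mice. Its log2 fold change was -3.09 (standard error 0.75, edgeR adjusted p = 0.0125). The medians lie close together, and the difference came from low mice 18 (32.4 CPM), 19 (26.2 CPM), 22 (6.07 CPM) and 29 (2.13 CPM), the first 2 and mouse 29 AP-treated and mouse 22 vehicle-treated. Cytl1, a cytokine-like protein of chondrocytes, had 516 and 422 CPM in mice 18 and 19 against medians of 19.1 (high) and 19.2 (low), at a log2 fold change of -1.98 (adjusted p = 0.0357). Hapln1, the link protein that ties aggrecan to hyaluronan, had -1.98 (adjusted p = 0.0496). Without mice 18 and 19, left out after their values were seen, 0 of the 18 were called, the median was 0.025, and Cnmd had -1.2 (adjusted p = 0.117). Within vehicle the cartilage median was 0.16, and within AP, which holds mice 18 and 19, -2.15.

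The largest decreases followed the same mice. Serpina1a and Serpina1d, alpha-1-antitrypsin genes of the mouse cluster whose near-identical copies can share reads, had 34.2 and 99.5 CPM in mouse 18 and 33.6 and 95.9 CPM in mouse 19. Their fold changes were -3.16 (adjusted p = 0.016) and -3.03 (adjusted p = 0.00947), and without mice 18 and 19 -1.13 (adjusted p = 0.148) and -1.25 (adjusted p = 0.0474). Msmp, a small secreted chemotactic protein, had -2.2 (adjusted p = 0.0383) and, without these mice, -1.16 (adjusted p = 0.103). Amd2, an S-adenosylmethionine decarboxylase gene of polyamine synthesis with a close relative in Amd1, was the only other named decrease and did not depend on mice 18 and 19. It ranged from 0.743 to 1.88 CPM (median 1.4) in the high mice and from 1.1 to 3.11 CPM (median 1.86) in the low mice, with 13 of 14 high mice below the low median and a log2 fold change of -0.54 (adjusted p = 0.0325), which was -0.57 (adjusted p = 0.036) without the 2 mice. It was called in 17 of 28 fits that left out 1 mouse. Only 7 of the 30 lower genes met the naming rule.

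The largest increases were of several kinds. Mt2, a metallothionein induced by stress and metals, was carried by mouse 16 at 328 CPM against a median of 31.4 CPM in high mice, at a log2 fold change of 1.11 (adjusted p = 0.0418). Most others were spread over the class. Scand1, a small SCAN-domain protein, ranged from 0.697 to 11.9 CPM (median 2.47) in the high mice and from 0.411 to 2.24 CPM (median 0.89) in the low mice, and its log2 fold change was 1.4 (standard error 0.26, edgeR adjusted p = 0.00302). Ier5l, an immediate early gene, ranged from 0.607 to 3.68 CPM (median 1.51) in the high mice and from 0.337 to 0.966 CPM (median 0.619) in the low mice, and its log2 fold change was 1.24 (standard error 0.18, edgeR adjusted p = 0.000831). For Eva1b, a small membrane protein, which ranged from 3.61 to 9.95 CPM (median 5.93) in the high mice and from 1.55 to 4.58 CPM (median 2.44) in the low mice, the log2 fold change was 1.09 (standard error 0.16, edgeR adjusted p = 0.000831), with all 14 high mice above the low median. Scand1, Ier5l and Eva1b were called within vehicle and with the GC trend removed as well, at 0.89 (adjusted p = 0.0439), 0.87 (adjusted p = 0.0172) and 0.78 (adjusted p = 0.00469).

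Ckb, the brain-type creatine kinase that osteoclasts and other cells use, ranged from 99.1 to 1003 CPM (median 250.2) in the high mice and from 55.7 to 301 CPM (median 124) in the low mice, at a log2 fold change of 1.12 (adjusted p = 0.00849). Tubb3, a tubulin best known from neurons, had 1.1 (adjusted p = 0.0131), with all 14 high mice above the low median. Bcan and Hapln4, which code for brevican and a link protein of hyaluronan matrix, had 1.5 (adjusted p = 0.035) and 1.14 (adjusted p = 0.0191). Bcan was called in 17 of 28 fits that left out 1 mouse and Hapln4 in 28 of 28. Of the 62 called genes named here, all kept their sign under every alternative. With the GC trend removed 11 were still called (Scand1, Ier5l, Adamts4, Eva1b, Cnmd, Serpina1d, Ccnd1, Tnfsf11, Col12a1, Smad6 and Rplp1), with the trend removed from the split too 45, and without mice 18 and 19 42.

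In 16 of the 34 lists edgeR called 0 members of 321 tested, against 17 higher and 14 lower with an unadjusted p under 0.05 and 4 higher and 0 lower by DESeq2. Under other settings edgeR called some, among others 3 of 11 MHC class II and 2 of 31 chemokine genes higher within vehicle. With scores of the marrow lineages as covariates 6 of 19 denervation genes were lower, and with a muscle score 2 of 20 neutrophil markers. Lists of marrow cells were among the 16. The 20 neutrophil markers had a median of -0.29 with 17 negative, the 19 erythroid markers -0.30 with 18 negative, the 20 B cell markers -0.070 and the 20 T and NK cell markers -0.48 with 19 negative. Without mice 18 and 19 these medians were -0.13, -0.077, -0.10 and 0.10. Over the fits that left out 1 mouse the neutrophil median ran from -0.37 to -0.19, the erythroid from -0.52 to -0.15 and the T and NK cell median from -0.59 to 0.051. The 26 skeletal muscle markers had a median of -0.24, the 20 adipocyte markers -0.049 and the 13 marrow stroma markers -0.025. With 1 mouse left out the adipocyte median ran from -0.089 to 0.055 and that of marrow stroma from -0.037 to 0.021. The muscle median was -0.54 within vehicle and 0.023 within AP. Interferon-stimulated genes had a median of -0.20, MHC class II genes 0.25, oxidative phosphorylation genes -0.14 and genes of denervated muscle 0.10, the last running from -0.30 to 0.20 with 1 mouse left out. Without mice 18 and 19 the interferon and oxidative phosphorylation medians were -0.063 and -0.27. The MHC class II median was 0.55 within vehicle and -0.027 within AP. The members with the smallest p in such lists included Pdgfrb, a growth factor receptor of marrow stroma, at 0.46 (adjusted p = 0.0209), Igfbp4, a binding protein of insulin-like growth factors, at 0.45 (adjusted p = 0.0365), both under the fold threshold, and Gzmb, a protease of cytotoxic lymphocytes, at -1.59 (adjusted p = 0.182) and -0.034 (adjusted p = 0.962) without mice 18 and 19. Gzmb was at 69.7 CPM in mouse 18 but at 1.23 CPM in mouse 19. Acsl1 (adipocyte), Tnnt1 (skeletal muscle), Runx1 (denervation), S100b (Schwann cell), Ifit3b (interferon), H2-DMb1 (MHC class II), Cox8a (oxidative phosphorylation) and Trib3 (stress response), the members with the smallest p in their lists, did not pass, with adjusted p of 0.0561 to 0.394. With the GC slope as a covariate the medians were -0.020 for Wnt genes, 0.032 for TGF-beta and BMP genes, -0.0018 for immediate early genes, 0.0040 for endothelial, 0.34 for macrophage, 0.061 for neutrophil and -1.49 for cartilage markers. With scores of the marrow lineages as covariates 556 genes were called higher and 456 lower, and with a muscle score 509 and 152.

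**Figure D5:**
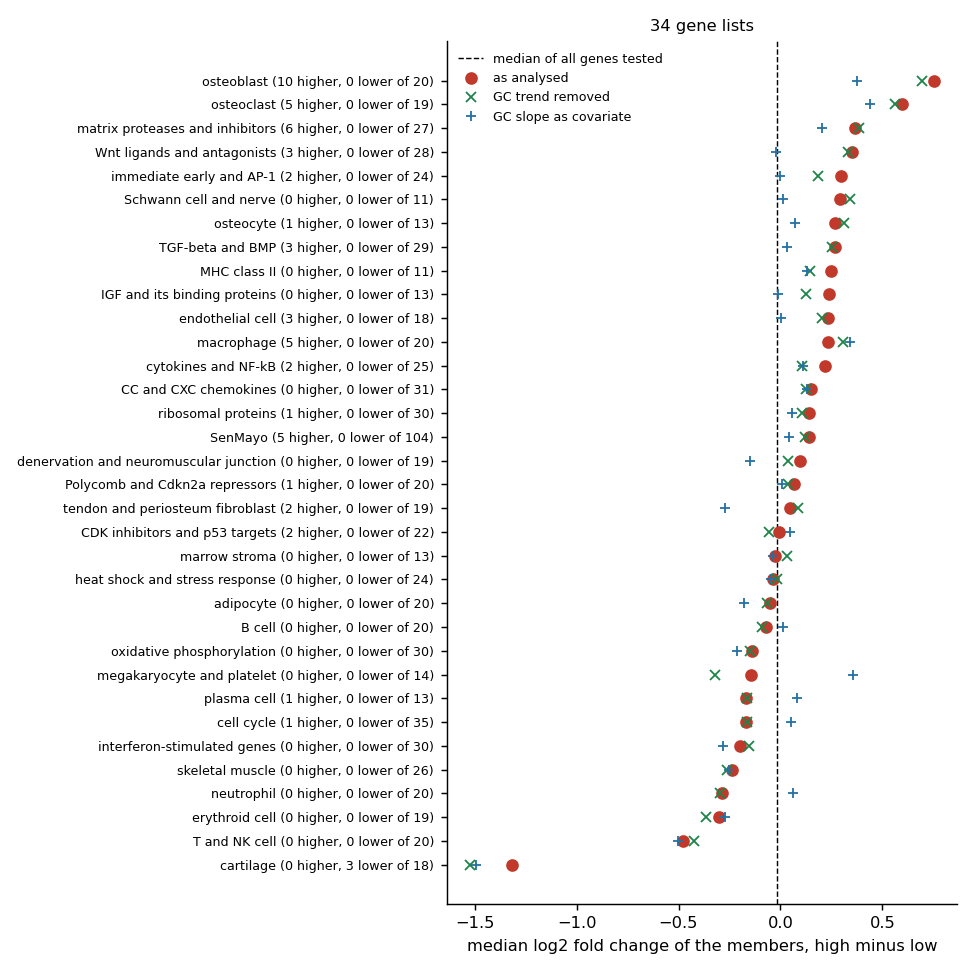
Median log2 fold change, high minus low, of each of the 34 gene lists, as deposited, with the GC trend removed and with the GC slope as covariate, with the number of members called beside each. Osteoblast (0.75) and osteoclast (0.60) markers lie at the upper end and cartilage markers (-1.32) at the lower end, and the osteoblast median is 0.38 with the GC slope as covariate.

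The difference between the classes was larger within vehicle than within AP by count, though not by a test. In a fit of the 4 cells, 280 genes (1.43% of 19603) were called higher and 37 (0.189%) lower within vehicle, where Cdkn2a differed by 4.26-fold between class means. Within AP, where it differed by 3.59-fold and the mice near the median were close, edgeR called 0 higher and 0 lower (0.0% in each direction), with 2144 genes at an unadjusted p under 0.05. The interaction of class and treatment, the test of that difference, gave 0 genes (0.0%), with 829 at an unadjusted p under 0.05. The smallest interaction p belonged to Ptchd1 (log2 fold change -0.91 within vehicle and 0.61 within AP, adjusted interaction p = 0.97) and to the clock-controlled gene Dbp (1.05 and -0.33, 0.97). They were followed by RP24-245M20.4, Pfkfb2 and Rpl27a, each with an adjusted p of at least 0.97.

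The vehicle and AP mice share no animal, so that the genes called in one can be read in the other. Of the 280 genes called higher within vehicle, 276 had a positive fold change within AP (median 0.34, against 0.73 within vehicle), and 177 had that sign with an unadjusted p under 0.05, or 63.2%. Among all genes tested 50.1% were positive within AP, and 9.52% had the same sign in both with such a p within AP. Of the 37 called lower, 9 were positive within AP, and 3 (8.11%) were negative with such a p, a share no higher than that of all genes. With the GC trend removed 75 genes were called higher within vehicle, of which 74 were positive within AP, where 47.9% of all genes were. Both treatments share the relation of Cdkn2a to the GC slope, and genes of one cell type move together, so that these counts are not counts of independent genes. The 10 called osteoblast markers and the 5 called osteoclast markers were not called within vehicle alone. Pgf had 1.12 within vehicle and 0.45 within AP, Junb 1.48 and 0.44, and Adamts4 0.83 and 1.36.

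Set against the young mice, the classes differed in where they lay. Both comparisons use the same 12 young mice and are given side by side, not as independent results. High old mice had 758 genes called higher (3.78% of 20045) and 823 lower (4.11%) than young mice, and low old mice 847 (4.23%) and 1371 (6.84%). Of the 20 osteoblast markers, 5 were lower than young in high old mice (median -0.30) and 17 in low old mice (median -1.18). Col1a1 ranged from 11803 to 36637 CPM (median 26725) in young mice. Against them its fold change was -0.28 (edgeR adjusted p = 0.53) in high and -1.38 (adjusted p = 0.000387) in low old mice. Alpl had -0.14 (adjusted p = 0.666) and -1.01 (adjusted p = 0.000269). The direct test of the difference is the comparison of high with low mice above. Osteoclast markers had 0 calls against young in high and 4 lower in low old mice. Adamts4, Eva1b, Scand1 and Rplp1 likewise passed as lower than young in low and did not pass in high old mice.

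Other genes were above young in the high class. Notum was higher than young in both, by 1.96 in high (adjusted p = 1.26e-06) and 0.89 in low old mice (adjusted p = 0.0074). Junb was higher than young by 0.89 in high mice (adjusted p = 0.00503) and had -0.070 in low mice (adjusted p = 0.854). Sema3f had 0.68 (adjusted p = 4.68e-05) and 0.070 (adjusted p = 0.689), Ccnd1 0.64 (adjusted p = 0.000513) and -0.065 (adjusted p = 0.756). SenMayo genes were called against young in both classes, 14 higher and 9 lower in high and 11 higher and 9 lower in low old mice. Neutrophil markers had 0 calls in high and 10 higher in low old mice, and Col12a1 was lower than young in both, at -0.80 and -1.5.

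Cdkn2a was last used as a number instead of a split, over all 29 old mice with treatment as a covariate. Per doubling of Cdkn2a CPM, 1918 genes (9.56%) were higher and 913 (4.55%) lower by adjusted p alone, and with the GC trend removed 512 and 120. The genes most like Cdkn2a were found by the Pearson correlation of log2 CPM centred within treatment over these 29 mice, which are the mice the classes were made from. The values are a description. The 10 highest were Sssca1 (0.88), Hps6 (0.86), Plxnb2, Rplp1, Tha1, Zfp362, Pltp, Ehmt2, Bbc3 and Emc10 (0.84), against a 95th percentile of 0.61 over the genes averaging at least 1 CPM. They include Hps6, a subunit of a complex for lysosome-related organelles, Plxnb2, a semaphorin receptor, Pltp, a phospholipid transfer protein, and Ehmt2, the histone H3 lysine 9 methyltransferase G9a. Pltp ranged from 82.3 to 257 CPM (median 111) in the high mice and from 49.7 to 133 CPM (median 74) in the low mice, with all 14 high mice above the low median. The 10 lowest were Rbm25 (-0.84), a splicing factor, Orc4 (-0.82), a subunit of the origin recognition complex, Ranbp6, the SUMO proteases Senp2 and Senp6, Strbp, Phf20l1, Nqo2, Gpbp1 and Tti2 (-0.77). Transcript GC content was 57.3% to 65.2% among the highest and 36.8% to 46.8% among the lowest 10, with no overlap, and across genes the correlation with Cdkn2a itself correlated with GC content (Spearman 0.57). Sssca1 had a log2 fold change of 0.29 (adjusted p = 0.00279) between the classes and 0.0083 (adjusted p = 0.941) with the GC trend removed, Rbm25 -0.19 (adjusted p = 0.00426) and -0.040 (adjusted p = 0.606).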

How the data were processed

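RNA from tibial diaphyses of 41 INK-ATTAC mice was sequenced on a HiSeq2000 by the authors, who deposited raw read counts per Ensembl gene. The submitters' processing notes name TopHat2 2.0.6, HTSeq and GRCm38. The annotation release and strand setting are not given in the sources used here. Without known strand, overlapping and antisense genes cannot be separated. The labels give the library source as genomic, although counts per gene are described, and all 37 mitochondrial genes are at 0 in every mouse. No batch is labelled. All 41 columns were used, 1 per mouse, with totals of 37028959 to 75942717.

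Cdkn2a CPM was its count over the column total, times 1000000, and classes were cut at the median within each treatment. The members and lists were chosen with earlier results of these data known. Counts were fitted in edgeR 4.0.16 (quasi-likelihood, TMM, filterByExpr, treatment as covariate, R 4.3.3), with Benjamini-Hochberg adjustment over all genes tested without Cdkn2a. Called genes had a log2 fold change beyond 0.5 and p under 0.05 after adjustment. Fits were tested on simulated data first. DESeq2 1.42.0 was an alternative. Mouse measures used two-sided permutation tests within treatment (100000 resamples, SciPy 1.17.1, Python 3.11.15). GC content was that of each gene's longest GENCODE M21 transcript, and the trend a natural spline with 4 degrees of freedom per mouse, used as offset. The GC fits and the fit without mice 18 and 19 were chosen after seeing the data. Most alternatives changed 1 choice. DESeq2 changed size factors, dispersion estimates and test together and left 2277 genes without an adjusted p. Removing the GC trend also dropped genes without a GC value, which left 18928. Removing the trend from the split too changed both the offset and the classes. The filter on low counts was applied anew in each fit, and genes tested numbered 18621 to 20805 in the alternatives that changed a setting and kept the filter. One median over all old mice moved 3 mice between classes, took in mouse 14 and left out mouse 22.

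Named were Cdkn2b, Cdkn1a and Mif, the 15 largest increases and decreases among called genes averaging at least 1 CPM (unnamed models and immunoglobulin segments left out), every called SenMayo gene, up to 4 called members of each other list by p (or the member with the smallest p), the 10 highest and lowest correlations with Cdkn2a and the 5 smallest interaction p-values. Of the genes this rule selects, 2 are not reported here. Other list members are given as examples chosen for their roles after their values were seen. Whether mice shared a cage or litter is not given, and p-values measure the spread between these mice.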

Additional observations from a re-analysis of the deposited data

Results flagged for a closer look

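Each of the 4 groups made by class and treatment (6 or 8 mice) was searched for a mouse far from the others by Dixon's test at the 95% level, on log2 CPM, for the 62 called genes, the GC slope and the total count (the last 2 not logged). Of 256 tests 24 gave such a mouse, where chance alone gives about 1 in 20. With CPM not logged, 45 gene tests did. Mouse 24 (high, AP), the mouse with the most Cdkn2a, accounts for 9. It was lowest in its group for Col1a1 (2456 CPM, the nearest mouse 12900), Cthrc1 (2.71 CPM, the nearest mouse 18.7), Dlx5 (6.56 CPM, the nearest mouse 14.2), Smpd3 (24.1 CPM, the nearest mouse 104), Siglec15 (0.718 CPM, the nearest mouse 3.08), Smad6 (4.9 CPM, the nearest mouse 7.67) and Cnmd (0.0205 CPM, the nearest mouse 0.375), and highest for the macrophage gene C1qa (286 CPM, the nearest mouse 116) and for Pltp (257 CPM, the nearest mouse 120.5). These osteoblast and osteoclast values run against the direction of the class. Without mouse 24, 652 genes were called higher in place of 434.

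Mouse 16 (high, vehicle) stood above its group for Adamts4 (23.7 CPM, the nearest mouse 10.4) and Wnt7b (9.5 CPM, the nearest mouse 0.738), and mouse 7 of the same group for Mmp13 (1512 CPM, the nearest mouse 624) and Cd68 (295 CPM, the nearest mouse 143). Mouse 15 of that group was lowest for Jund (16.9 CPM, the nearest mouse 25.4) and Rplp1 (566 CPM, the nearest mouse 719), and mouse 23 for Smpd3 (110.5 CPM, the nearest mouse 178).

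Among low vehicle-treated mice, mouse 22 stood above the others for Cnmd (6.07 CPM, the nearest mouse 0.778), Serpina1a (5.28 CPM, the nearest mouse 0.677) and Serpina1d (15.5 CPM, the nearest mouse 2.57), the genes that mice 18 and 19 carry among AP-treated ones. Mouse 1 was highest for Ocstamp (24.5 CPM, the nearest mouse 10.1), and mouse 20 lowest for Cebpd (3.5 CPM, the nearest mouse 7.35). Among high AP-treated mice, mouse 27 was highest for Ccnd1 (156 CPM, the nearest mouse 86.2) and mouse 9 lowest for Cd68 (72.1 CPM, the nearest mouse 119). Mouse 3 was lowest of the low AP-treated mice for C1qa (40.7 CPM, the nearest mouse 67.9).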

How the results depend on the processing

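High against low mice gave 434 genes higher and 30 lower. Within 1.5 times of both counts were DESeq2 size factors (378 and 35), no filter (366 and 44), the split on TMM-scaled Cdkn2a (434 and 30), no treatment covariate (431 and 42) and leaving out mice 18 and 19 (308 and 41). Lower genes numbered 61 by DESeq2, 152 with a muscle score and 456 with marrow scores as covariates. Without the 8 mice nearest the split there were 1053 higher and 155 lower, with one median over all old mice 103 and 6, by adjusted p alone 1316 and 283, with the GC trend removed 52 and 6, with the GC slope as covariate 0 and 0, and with the trend removed from the split too 653 and 106. Leaving out each mouse gave 287 to 847 higher and 21 to 47 lower. Within vehicle, no filter gave 125 and 8 in place of 280 and 37, and removal of the GC trend 75 and 6. For Cdkn2a as a covariate the GC trend's removal gave 512 and 120 in place of 1918 and 913. The cause was not tested, apart from the fewer mice used. Calls against young mice stayed within 1.5 times under the alternatives run.

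Fold changes turned sign for genes that were not called. Gp6 had 0.34, Dntt 0.0058 and RP24-245M20.4 0.014 with the GC slope, Dbp -0.14 with it and -0.026 without the trend. Ptchd1 had 0.18 without the nearest mice, 0.13 with one median, 0.033 without treatment, 0.021 with the muscle score, 0.050 and 0.041 in the GC fits, and -0.11 to 0.081 with a mouse left out. The 62 called genes named kept their sign in every alternative run. Their calls held for 11 with the GC trend removed, 0 with the slope as covariate, 17 with one median and 40 to 62 with a mouse left out. At 19 to 70 Cdkn2a reads per low mouse, counting error limits the placing of mice near the AP median. No paired analysis was possible because the mice carry no shared numbers.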
